A study of Mus musculus with 7 samples.

Results

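The RNA-binding proteins described here act on messenger RNA in neurons and their progenitors, either as regulators of splicing or as regulators of stability, transport and translation. They comprise the Rbfox, Nova, Celf, Mbnl and Khdrbs families, Srrm4 and Qk on the splicing side, and the Elavl, Musashi, Cpeb, fragile X, Pumilio and Igf2bp proteins on the side of messenger RNA fate. The list of 36 gene symbols was matched to the gene column of the deposited table, which holds 56941 rows, and 35 symbols had a row. The symbol Qk had none. The table has a row Qki, a spelling that RefSeq lists among the synonyms of Qk, and its values are given separately and counted among none of the 35. The symbols alone, and no measured value, pick the rows.

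Splicing regulators of this kind bind short sequence elements in introns and exons of precursor RNA and so decide which exons are kept as neurons mature. Rbfox proteins bind UGCAUG, Mbnl and Celf proteins act against each other on many exons, and Srrm4 promotes the inclusion of very short neuronal exons. Elavl proteins bind AU-rich and U-rich elements and stabilise their targets, while Cpeb, Pumilio, Musashi and fragile X proteins mostly hold back or time translation. RNA from whole cortex gives the transcript level of these regulators and says nothing on the exons they control.

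RNA was sequenced from the cerebral cortex of mice at postnatal day 7. The groups were 4 wild-type (WT) samples and 3 samples from Hnrnph2 P213L mice, which carry a proline-to-leucine variant in an X-linked splicing factor of the heterogeneous nuclear ribonucleoprotein class. The sources used here give no zygosity, sex or method by which the allele was made, and no treatment is named for either group. The series concerns oligodendrocyte differentiation, and the comparison here asks how the regulators of neural RNA stood in the variant cortex. Whether each sample was a different animal is not stated in the labels; the p-values rest on the spread of the samples as deposited, part of which may be technical. Values are TPM, a transcript level scaled by gene length and by library. In bulk tissue, fewer cells of a type and less RNA per cell cannot be told apart.

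The tissue carried cortical identity. The 7 cortical genes fixed for this check summed to 306.7 to 452.5 TPM in every library. Of 6 hindbrain and spinal cord genes, 4 were at 0 in all 7 libraries and the list summed to at most 1.13 TPM. Estimated depth was 57.2 M counted units in WT replicate 3 and 66.4 to 79.5 M in the other 6 libraries. WT replicate 3 stood apart: its median correlation with the other libraries over 17582 tested genes was 0.947, against 0.986 to 0.989 for the rest. Its 6 excitatory neuron markers, Slc17a7 and Neurod6 at their head, summed to 718.0 TPM against 1163 to 1237 TPM in the other WT and 1094 to 1200 TPM in P213L. In that library 28367 genes were above 0 and the TPM-weighted exon length was 3251 bases, against 31387 to 32526 genes and 3976 to 4026 bases elsewhere. Malat1, a long nuclear RNA, stood at 89.9 TPM there, at 290.6 to 385.2 TPM in the other WT and at 488.2 to 568.7 TPM in P213L. Its inhibitory neuron and blood markers summed to 2366 and 902.8 TPM, against 1498 to 1685 and 415.0 to 600.1 TPM elsewhere. Its 6 pan-neuronal markers summed to 6282 TPM, inside the range of the other libraries (5836 to 6409 TPM). Choroid plexus markers, mainly Ttr, summed to 1244 TPM in WT replicate 2 and to 4.83 to 9.54 TPM elsewhere. Microglial markers, C1qa among them, summed to 237.1 to 277.0 TPM among WT and 224.2 to 232.3 TPM in P213L, without overlap. All 7 of these genes were lower in P213L. Over all single genes tested, 8.69% had groups that did not overlap (2.75% with P213L below), and 63.4% had a positive fold change. Astrocyte markers summed to 906.1 TPM in WT replicate 3, 1163 to 1355 TPM in the other WT and 1056 to 1127 TPM in P213L. The part of these differences in the results was not tested. Results are given with and without WT replicate 3.

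At this age the regulators spanned a wide range of levels. Averaged over the 7 samples, 10 of the 35 genes stood at 100 TPM or more, 19 between 10 and 100 TPM, 4 between 1 and 10 TPM and 2 under 1 TPM. The neuronal Elavl3 was the most abundant, followed by Celf4, Rbfox2 and Rbfox3. At the bottom were Igf2bp1, a fetal regulator of messenger RNA transport, and Mbnl3, a muscleblind protein best known from outside the brain. The 33 genes averaging 1 TPM or more entered the test.

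**Figure D1:**
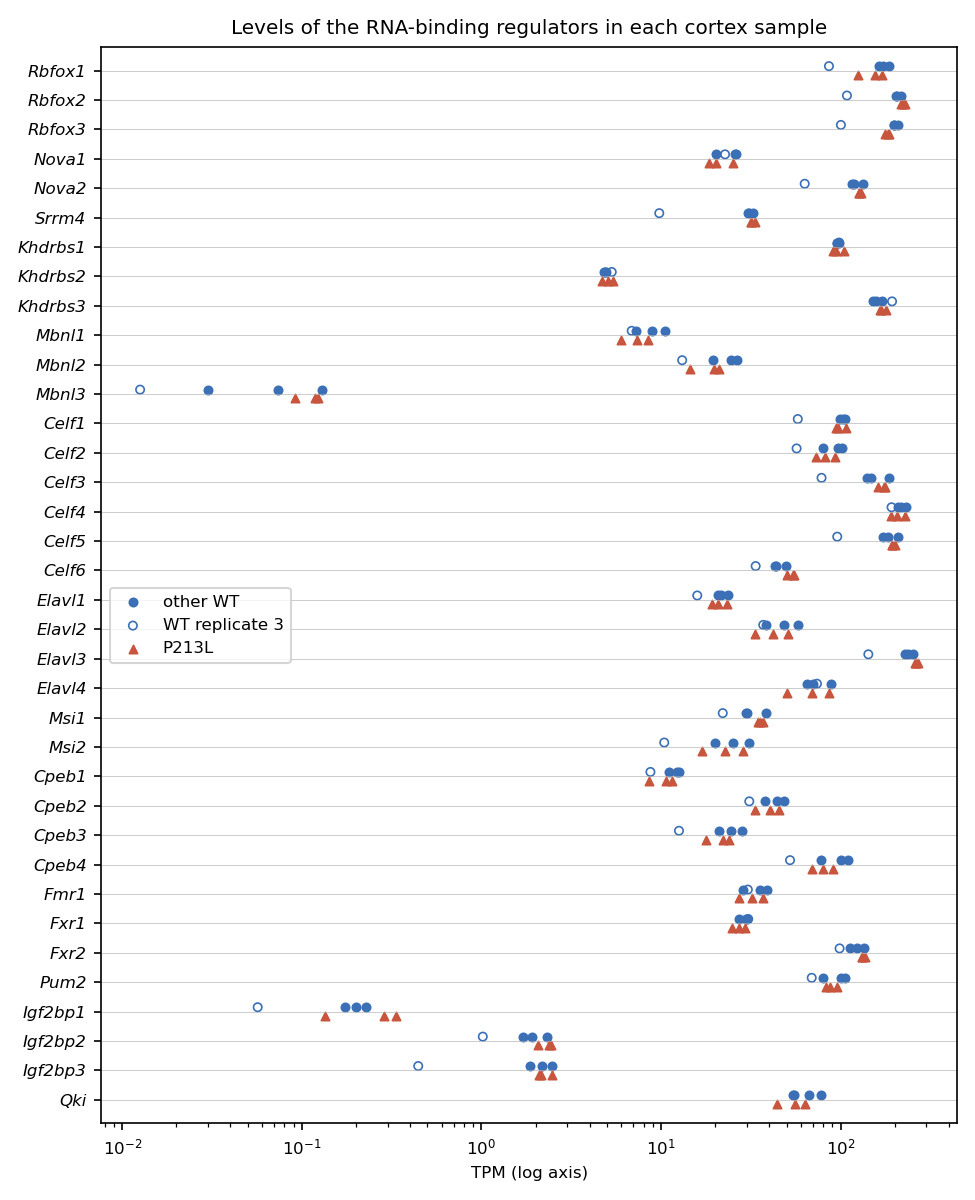
TPM of each gene (log axis) in each cortex sample, with WT as circles, WT replicate 3 as open circles and P213L as triangles. The open circle lies to the left of the other symbols for many genes, and Igf2bp1 and Mbnl3 lie under 1 TPM in every sample.

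Gene by gene, no regulator differed between P213L and WT past the threshold. In limma's moderated test, 0 of 33 passed an adjusted p of 0.05, as did 0% of all 17582 tested genes. The adjusted p ran from 0.827 to 0.991. At an unadjusted p under 0.05 there was 1 gene, Celf6, higher in P213L, where 3.74% of all tested genes were called (2.36% higher). The 2 genes whose groups did not overlap were Celf6 and Elavl3, both higher in all 3 P213L samples, and 8.69% of all tested genes had groups that did not overlap. Of the 33 genes, 21 had a positive fold change (63.6%, against 63.4% of all tested genes), and their median log2 fold change was 0.030 beside 0.074 over all tested genes. The 95% intervals reached 0.217 to 0.919 on the log2 scale to either side of the estimate. They are not adjusted for the number of genes tested. Differences of that size, and larger ones, in single genes could therefore go uncalled at the adjusted threshold.

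These counts depend on single libraries, on scaling and on how samples are weighted. Without WT replicate 3, 13 of 33 genes had a positive fold change (49.6% of all tested genes did), 3 were at an unadjusted p under 0.05 (8.69% of all tested genes), 3 had groups that did not overlap (14.2% of all tested genes) and again 0 passed adjustment. Without P213L replicate 1, 30 of 33 had a positive fold change, and without P213L replicate 2, 13 did. The share over all tested genes was not counted in those fits, so these counts cannot be set apart from a shift of the whole table. The median log2 fold change over all tested genes ran from -0.0016 (without WT replicate 3) to 0.10 (without WT replicate 2) in leave-one-out fits. Without WT replicate 1, 9 of 33 had groups that did not overlap, beside 25% of all tested genes. With median-of-ratios scaling 14 of 33 had a positive fold change, with a median of -0.054 beside -0.0045 over all tested genes. With sample weights estimated from the data, 8 of 33 genes passed adjustment, beside 22.6% of all tested genes. They were Celf3, Celf6, Elavl3 and Msi1 on the higher side and Celf2, Cpeb4, Mbnl2 and Nova1 on the lower side. Those weights were 5.24 for WT replicate 4 and 6.90 for P213L replicate 3, against 0.0431 to 1.25 for the other 5 libraries.

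**Figure D2:**
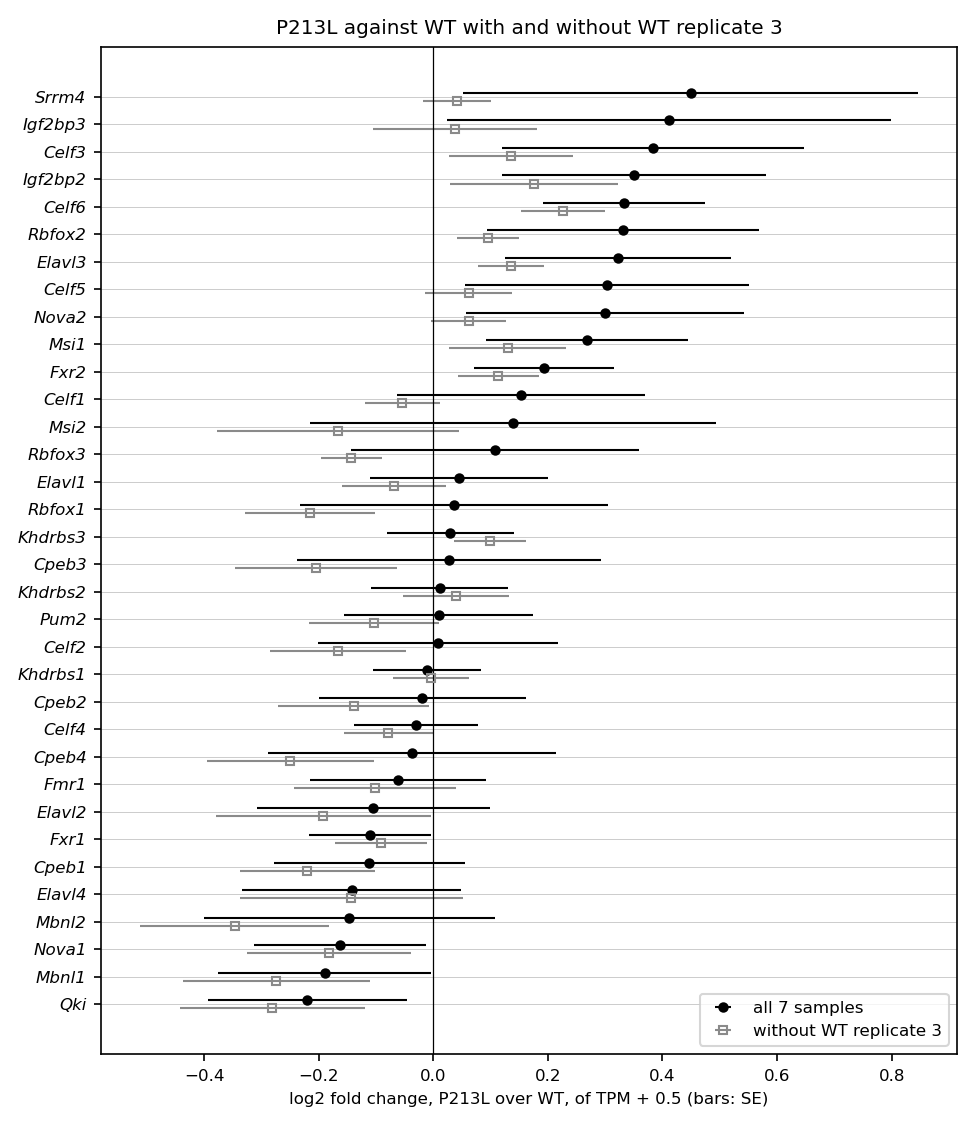
Log2 fold change of P213L over WT for the 33 tested genes and the row Qki, with bars of 1 SE, from all 7 samples (filled circles) and without WT replicate 3 (open squares). The open squares lie to the left of the circles for most genes and their bars are shorter; Celf6 stays on the right at 0.33 and 0.23.

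The Rbfox family had 3 abundant members at this age. Rbfox1 and Rbfox3 (the latter is the antigen NeuN) are neuronal, while Rbfox2 is expressed more widely. Rbfox3 stood at 209, 198, 100.3 and 197 TPM in WT replicates 1 to 4 and at 177, 184 and 185 TPM in P213L. The groups overlapped only through WT replicate 3. The log2 fold change was 0.11 ± 0.25 (SE, adjusted p = 0.895 in limma) with all samples and -0.14 ± 0.05 without that library (unadjusted p = 0.0292, adjusted p = 0.537 in limma), where all 3 P213L values lay below the 3 WT values. Rbfox1 stood at 163, 185, 86.1 and 172 TPM in WT and at 126, 171 and 155 TPM in P213L. Its fold change was 0.04 ± 0.27 and, without WT replicate 3, -0.22 ± 0.11 (log2, SE). Rbfox2 stood at 203, 205, 108 and 217 TPM in WT and at 229, 221 and 217 TPM in P213L, with 0.33 ± 0.24 and, without that library, 0.10 ± 0.05 (log2, SE). In each of the 3 genes WT replicate 3 lay lowest of the 7 samples.

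Nova1 and Nova2 are paralogs that bind RNA through KH domains and shape neuronal exons. Nova2, the form that dominates in cortex, stood at 133, 119, 63.1 and 115 TPM in WT and at 127, 127 and 130 TPM in P213L (log2 fold change 0.30 ± 0.24, SE). Nova1 stood at 20.2, 26.3, 22.7 and 25.9 TPM in WT and at 18.5, 25.1 and 20.1 TPM in P213L (-0.16 ± 0.15). Without WT replicate 3 the fold changes were 0.06 for Nova2 and -0.18 for Nova1. The groups overlapped for both, and WT replicate 3 lay far below the others for Nova2 and among them for Nova1. The paralogs are shown because their transcripts differ widely in base composition: the GC content of the GENCODE vM21 exons was 38.5% for Nova1 and 56.3% for Nova2, which bears on the pattern across libraries described further on. The stretches encode the same 30 residues, part of a run of 52 that they share, and differ at 26 of 90 bases. Capitals mark G or C at the third codon position. They are read 5′ to 3′ on the coding strand from GENCODE vM21 transcripts (mm10), both from exon 2, at chr12:46816929-46817018 (minus strand) and chr7:18942227-18942316 (plus strand).
Nova1: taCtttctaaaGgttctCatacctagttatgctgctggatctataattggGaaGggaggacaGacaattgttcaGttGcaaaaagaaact
Nova2: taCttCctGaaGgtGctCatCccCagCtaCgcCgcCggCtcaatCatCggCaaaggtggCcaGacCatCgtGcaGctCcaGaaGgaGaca
The third position is G or C in 26.7% of these codons in Nova1 and 86.7% in Nova2, and in 42.8% and 86.5% of the whole coding sequences.

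Srrm4, also called nSR100, drives the inclusion of neuronal microexons. It stood at 30.3, 31.0, 9.77 and 32.6 TPM in WT and at 31.6, 31.8 and 33.3 TPM in P213L. Outside WT replicate 3 the 6 samples lay close together. The fold change of 0.45 ± 0.40, the highest of the 33, became 0.04 ± 0.06 without that library (log2, SE).

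The Khdrbs genes encode Sam68 and its relatives SLM1 and SLM2, which regulate neurexin splicing. They varied little between samples. Khdrbs1 stood at 95.2, 98.5, 98.1 and 95.2 TPM in WT and at 90.5, 104 and 93.6 TPM in P213L, and its log2 fold change was -0.01 ± 0.09 (SE, 95% interval -0.23 to 0.21). Khdrbs3 lay at 152 to 193 TPM among WT and 165 to 179.6 TPM in P213L, and Khdrbs2 at 4.80 to 5.31 and 4.68 to 5.39 TPM. Unlike in the Rbfox genes, WT replicate 3 was the highest WT sample for Khdrbs2 and Khdrbs3. The groups overlapped for all 3.

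Muscleblind proteins promote adult splicing patterns and increase with maturation. Mbnl2, the main brain form, stood at 19.4, 26.4, 13.1 and 24.5 TPM in WT and at 14.4, 21.0 and 19.8 TPM in P213L. Its log2 fold change was -0.15 ± 0.25 with all samples and -0.35 ± 0.16 without WT replicate 3 (SE, adjusted p = 0.864 and 0.592 in limma). Mbnl1 stood at 7.28, 10.5, 6.86 and 8.92 TPM in WT and at 5.95, 8.46 and 7.38 TPM in P213L (-0.19 ± 0.19). The groups overlapped in both genes. Mbnl3 did not reach the filter, with 0.0126 to 0.129 TPM among WT and 0.0920 to 0.123 TPM in P213L, which corresponds to an estimated 2.0 to 21.5 counted units per library.

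The Celf proteins divide into the widely expressed Celf1 and Celf2 and the neuronal Celf3 to Celf6. Celf6 (mm10 chr9:59577917-59607292, plus strand) stood at 49.3, 43.1, 33.6 and 43.9 TPM in WT and at 54.9, 50.4 and 54.4 TPM in P213L. All P213L values lay above all WT values. The log2 fold change was 0.33 ± 0.14 (SE, unadjusted p = 0.0466, adjusted p = 0.827 in limma) and 0.23 ± 0.07 without WT replicate 3. Leaving out WT replicate 2, WT replicate 4 or any of the P213L samples put its unadjusted p at 0.0706 to 0.123 in limma. Celf3 stood at 185, 139, 78.2 and 147 TPM in WT and at 175, 162 and 177 TPM in P213L (0.38 ± 0.26), so WT replicate 1 lay above every P213L sample. Celf5 stood at 208, 173, 95.7 and 183 TPM in WT and at 192, 194 and 200.3 TPM in P213L (0.30 ± 0.25). Without WT replicate 3 the fold changes were 0.14 for Celf3 and 0.06 for Celf5. Celf4 lay at 192 to 232 TPM among WT and 191 to 228 TPM in P213L, and WT replicate 3 was only a little below the others there. Celf1 lay at 57.7 to 106 TPM among WT and 94.2 to 106 TPM in P213L, and Celf2 at 56.8 to 102 and 72.7 to 93.5 TPM. For both the fold change turns negative without WT replicate 3 (Celf1 0.15 and -0.05, Celf2 0.01 and -0.17, log2).

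Quaking, encoded by Qk, governs splicing and stability of myelin transcripts in oligodendrocytes and is also found in astrocytes and progenitors. The row Qki stood at 54.5, 77.2, 55.4 and 67.0 TPM in WT and at 44.3, 63.7 and 55.5 TPM in P213L. The groups overlapped, and the log2 fold change was -0.22 ± 0.17 (SE, adjusted p = 0.827 in limma). Without WT replicate 3 it was -0.28 ± 0.16 (SE, adjusted p = 0.624 in limma). With sample weights it was -0.30 and passed adjustment (adjusted p = 0.0397 in limma), as did 22.6% of all tested genes. The 6 myelinating oligodendrocyte markers, with Cnp and Mbp the most abundant, summed to 289.8 to 337.5 TPM among WT and 220.4 to 237.0 TPM in P213L. Their part in the Qki values was not tested.

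Among the regulators of messenger RNA stability, the Hu proteins Elavl2, Elavl3 and Elavl4 are neuronal and Elavl1 (HuR) is found in all cells. Elavl3 (mm10 chr9:22015005-22052023, minus strand) stood at 253, 238, 143 and 229 TPM in WT and at 259.6, 269.9 and 261 TPM in P213L. All P213L values lay above all WT values. Its log2 fold change was 0.32 ± 0.20 (SE, adjusted p = 0.827 in limma) and 0.14 ± 0.06 without WT replicate 3 (unadjusted p = 0.0492). Elavl4 stood at 65.3, 88.4, 73.8 and 69.8 TPM in WT and at 50.4, 85.6 and 69.3 TPM in P213L (-0.14 ± 0.19). Elavl2 stood at 38.2, 57.6, 37.1 and 48.4 TPM in WT and at 33.3, 51.1 and 41.8 TPM in P213L (-0.10 ± 0.20). In both of these genes P213L replicate 1 was the lowest of all samples. Elavl1 lay at 15.9 to 23.7 TPM among WT and 19.1 to 23.2 TPM in P213L (0.05 ± 0.16).

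The Musashi proteins restrain translation in neural progenitors. Msi1 stood at 38.3, 30.2, 22.1 and 29.8 TPM in WT and at 36.7, 34.6 and 35.8 TPM in P213L (log2 fold change 0.27 ± 0.18, SE). Msi2 stood at 20.1, 30.8, 10.4 and 25.1 TPM in WT and at 16.9, 28.5 and 22.7 TPM in P213L (0.14 ± 0.35). Without WT replicate 3 the fold changes were 0.13 for Msi1 and -0.17 for Msi2. With WT replicate 3 set aside, WT replicate 1 and P213L replicate 1 were the highest for Msi1 and the lowest for Msi2. The GC content of their transcripts was 57.1% and 47.3%. The stretches shown for that contrast encode the same 30 residues of a shared run of 35, cross exons 4 to 6 in both genes, and span chr5:115430868-115435480 (plus strand) and chr11:88590121-88716530 (minus strand) of mm10 with introns left out. Capitals mark G or C at the third codon position.
Msi1: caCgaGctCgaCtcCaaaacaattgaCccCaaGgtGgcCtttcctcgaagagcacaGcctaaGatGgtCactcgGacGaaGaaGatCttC
Msi2: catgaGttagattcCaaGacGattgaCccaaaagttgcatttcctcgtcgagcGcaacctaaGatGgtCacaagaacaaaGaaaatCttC
The third position is G or C in 20 of these 30 codons in Msi1 and in 12 of 30 in Msi2.

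The fragile X protein FMRP, encoded by Fmr1, represses translation at synapses, and Fxr1 and Fxr2 are its paralogs. Fmr1 stood at 28.7, 38.9, 30.4 and 35.6 TPM in WT and at 27.2, 36.8 and 31.9 TPM in P213L (log2 fold change -0.06 ± 0.15, SE). Fxr2, the most abundant of the 3, stood at 134, 113, 98.6 and 123 TPM in WT and at 137, 131 and 132 TPM in P213L (0.19 ± 0.12). Fxr1 stood at 27.0, 29.96, 30.6 and 29.7 TPM in WT and at 25.0, 29.4 and 27.0 TPM in P213L (-0.11 ± 0.11). The groups overlapped in each gene. Fxr1 and Fxr2 show the same contrast in base composition, with 41.1% and 55.5% GC in their transcripts. The stretches encode the same 30 residues of a shared run of 31, lie in exons 9 and 10 of both genes, and span chr3:34050132-34054289 and chr11:69649207-69649795 (plus strands, mm10, intron left out). Capitals again mark G or C at the third codon position.
Fxr1: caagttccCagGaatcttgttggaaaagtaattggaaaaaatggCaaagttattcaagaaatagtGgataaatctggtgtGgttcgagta
Fxr2: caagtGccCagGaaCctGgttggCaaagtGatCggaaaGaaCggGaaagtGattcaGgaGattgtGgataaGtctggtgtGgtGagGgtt
The third position is G or C in 16.7% of these codons in Fxr1 and 63.3% in Fxr2.

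Cpeb proteins bind a U-rich element and control the length of the poly(A) tail and translation. Cpeb4 was the most abundant, at 77.2, 109, 52.2 and 101 TPM in WT and 69.7, 91.2 and 79.4 TPM in P213L (log2 fold change -0.04 ± 0.25 and, without WT replicate 3, -0.25 ± 0.15, SE). Cpeb2 lay at 31.0 to 48.6 TPM among WT and 33.2 to 45.3 TPM in P213L, Cpeb3 at 12.6 to 28.3 and 17.7 to 24.0 TPM, and Cpeb1 at 8.72 to 12.5 and 8.58 to 11.5 TPM. In all 4 genes P213L replicate 1 was the lowest P213L sample. Pum2, a Pumilio repressor of translation, stood at 79.6, 106, 69.0 and 100.5 TPM in WT and at 82.4, 94.8 and 87.5 TPM in P213L (0.01 ± 0.17).

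The Igf2bp proteins stabilise and localise messenger RNA in fetal tissue and are mostly shut off after birth. Igf2bp3 stood at 2.19, 2.48, 0.445 and 1.86 TPM in WT and at 2.49, 2.14 and 2.10 TPM in P213L, with a log2 fold change of 0.41 ± 0.39 (SE) and 0.04 ± 0.14 without WT replicate 3. Igf2bp2 stood at 2.33, 1.91, 1.02 and 1.70 TPM in WT and at 2.43, 2.38 and 2.06 TPM in P213L (0.35 ± 0.23, and 0.18 without WT replicate 3). Igf2bp1 stood at 0.0568 to 0.226 TPM among WT and 0.135 to 0.336 TPM in P213L, an estimated 68.1 counted units or fewer per library, and was not tested. On the log2(TPM + 0.5) scale the fold changes of genes this low are understated. The 8 progenitor markers, among them Sox2 and Vim, summed to 199.7 to 235.2 TPM among WT and 224.6 to 245.3 TPM in P213L. WT replicate 3, at 235.2 TPM, lay inside the P213L range. Without it the WT range was 199.7 to 221.9 TPM, below all P213L samples. In that setting 14.2% of all tested genes had groups that did not overlap. With all 7 samples, 0 of 7 tested markers had a negative fold change, where 63.4% of all tested genes had a positive one. Their part in these values was not tested.

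By known site of expression, of 14 neuron-enriched genes 10 had a positive fold change (median 0.072 on the log2 scale), of 16 broadly expressed genes 8 (median -0.001), and of 3 fetal or progenitor-enriched genes 3 (median 0.35). Over all tested genes 63.4% were positive and the median was 0.074. Without WT replicate 3 these counts were 8 of 14, 2 of 16 and 3 of 3, with medians of 0.040, -0.12 and 0.13. Over all tested genes 49.6% were then positive, with a median of -0.0016. With median-of-ratios scaling they were 7 of 14, 4 of 16 and 3 of 3. With the trend on GC content and exon length removed, as described further on, they were 6 of 14, 3 of 16 and 3 of 3 (46.2% of all tested genes). With that trend removed and WT replicate 3 left out they were 7 of 14, 6 of 16 and 3 of 3 (49.3% of all tested genes). The difference between the classes was not tested.

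Single libraries stood apart from the rest for many of the regulators. In WT replicate 3, 27 of 33 genes lay below the median of the other 6 libraries, with a median deviation of -0.62 (log2) beside -0.31 over all tested genes, and it was the lowest of all 7 libraries for 22 of 33 (55.2% of all tested genes). The lowest deviations there belonged to Srrm4, Igf2bp3 and Msi2, whereas Khdrbs1, Khdrbs2, Khdrbs3, Fxr1, Elavl4 and Nova1 lay above 0. P213L replicate 1 was the lowest of the 7 for 10 of 33 genes (11.7% of all tested genes), with a median deviation of -0.14 beside 0.011 over all tested genes. WT replicate 2 was the highest for 16 of 33 (19.6% of all tested genes), with a median deviation of 0.16 beside 0.015.

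**Figure D3:**
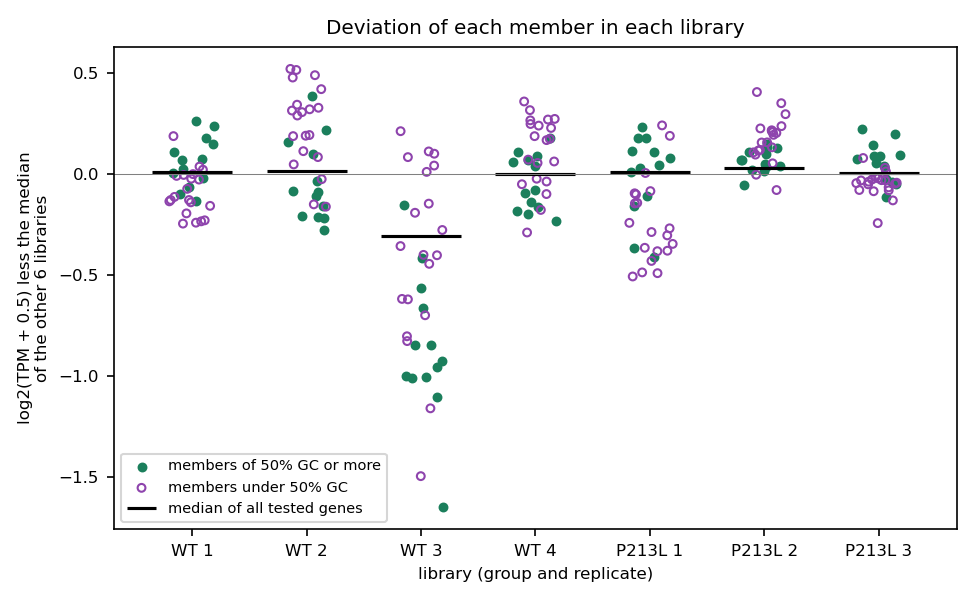
Log2(TPM + 0.5) of each of the 33 genes in each library less the median of the other 6 libraries, with filled symbols for transcripts of 50% GC or more, open symbols for those under 50% and a black line for the median of all tested genes. The symbols in WT replicate 3 reach down to -1.65, and in P213L replicate 1 the open symbols lie mostly below the filled ones.

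Between replicates 1 and 2 of either genotype, the differences ran with the base composition of the transcripts. These libraries had the highest and lowest TPM-weighted GC content of their group (51.70 and 50.60% in WT, 51.90 and 51.05% in P213L). WT replicate 4 and P213L replicate 3 were not compared in this way as single libraries. The division at 50% GC was chosen after the values were seen. Of the 20 genes under 50% GC, among them Mbnl1, Cpeb4, Elavl2, Fmr1 and Nova1, 17 were higher in WT replicate 2 than in WT replicate 1, with a median difference of 0.35 (log2). Of the 13 genes at or above 50%, among them Celf3, Celf5, Msi1, Fxr2 and Nova2, 5 were higher, with a median of -0.090. Across all tested genes with a GC value, 76.8% of those under 50% and 25.0% of those at or above it were higher. Spearman's rank correlation between GC content and this difference was -0.73 across the 33 genes and -0.62 across 16614 genes. P213L replicate 2 less replicate 1 gave -0.68 across the 33 and -0.58 across the 16614. WT replicate 3 less the mean of the other WT gave -0.51 and -0.038. Genes within a library share its preparation and depth, so these coefficients describe the libraries and carry no p-value.

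The fold change between the groups was also ordered by GC content, and rose with it. Of the 13 genes at or above 50% GC, 12 had a positive fold change (median 0.30), and of the 20 under 50%, 9 did (median -0.015). Among all tested genes 74.1% and 53.1% were positive. The same rank correlation between GC content and the fold change was 0.72 across the 33 genes and 0.29 across all. Without WT replicate 3 it was 0.55 across the 33 and 0.38 across all. The counts without that library were 9 of 13 (median 0.062) and 4 of 20 (median -0.12). Among all tested genes 65.1% and 34.2% were positive in that setting. An alternative chosen after seeing the data removed a trend on GC content and exon length from each library. The counts were then 9 of 13 and 3 of 20. Among all tested genes 47.4% and 45.0% were positive (46.2% of both together). The rank correlation was 0.47 across the 33 genes and 0.024 across all. In that fit Celf6 had a log2 fold change of 0.17, Elavl3 of 0.11, Srrm4 of 0.24 and Rbfox3 of -0.12, and 0 of 33 genes passed adjustment in limma, with 2 at an unadjusted p under 0.05 (6.49% of all tested genes). Genotype and base composition of the libraries were not tested as separate causes.

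**Figure D4:**
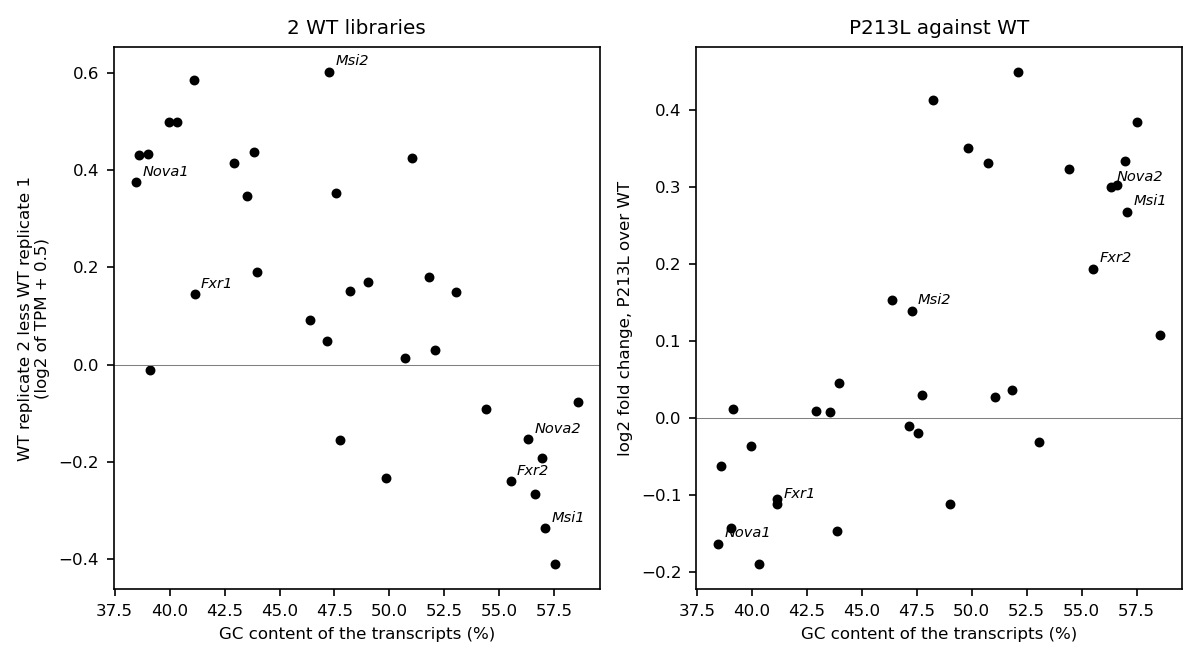
GC content of the transcripts of the 33 genes (percent) against the difference between WT replicates 2 and 1 (left) and against the log2 fold change of P213L over WT (right), with 3 pairs of paralogs named. Points run downward on the left (rank correlation -0.73) and upward on the right (rank correlation 0.72).

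Ratios between members of a family do not depend on how a library is scaled. Rbfox2 made up 35.2, 34.8, 36.8 and 37.1% of the summed TPM of the Rbfox family in WT and 43.0, 38.4 and 38.9% in P213L, so that all 3 P213L samples lay above all 4 WT samples. Rbfox3 made up 36.4, 33.7, 34.0 and 33.6% in WT and 33.4, 32.0 and 33.3% in P213L, below WT by a narrow margin. The log2 ratio of Rbfox2 to Rbfox3 was 0.062 ± 0.083 in WT and 0.28 ± 0.072 in P213L (SD, n = 4 and 3). WT replicate 3, which was so low in each gene alone, lay inside the range of the other WT samples for all 3 shares. Transcript GC content was 51.8% for Rbfox1, 50.7% for Rbfox2 and 58.6% for Rbfox3. Of 40 pairs of tested genes within a family, the ratio of 2 had groups that did not overlap, Rbfox1 to Rbfox2 and Rbfox2 to Rbfox3, which is 5.0% beside 9.29% of all pairs of tested genes. A share of that size is no more than the background gives.

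Of 33 shares in 10 families, 3 had groups that did not overlap: Rbfox2, Rbfox3 and Elavl1. Shares within a family are tied to each other, so those of Rbfox2 and Rbfox3 are not independent. No such share was counted over all genes. Groups did not overlap for 8.69% of all tested genes and 9.29% of all pairs of tested genes. Elavl3 held 52.9 to 67.1% of the Elavl family in WT and 62.8 to 71.6% in P213L, with WT replicate 3 lowest, and Elavl4 held 17.3 to 27.4% and 13.9 to 19.9%. Elavl1 held 5.49 to 5.90% in WT and 5.27 to 5.39% in P213L, without overlap. Msi1 held 49.6 to 67.9% of the Musashi total in WT and 54.8 to 68.5% in P213L. Nova2 held 73.5 to 86.8% and 83.4 to 87.3%, and Fxr2 61.8 to 70.6% and 66.4 to 72.5% of its family. Celf4 stood at 25.2 to 29.2% of the Celf total in 3 WT samples and 24.5 to 27.3% in P213L, and at 37.3% in WT replicate 3.

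**Figure D5:**
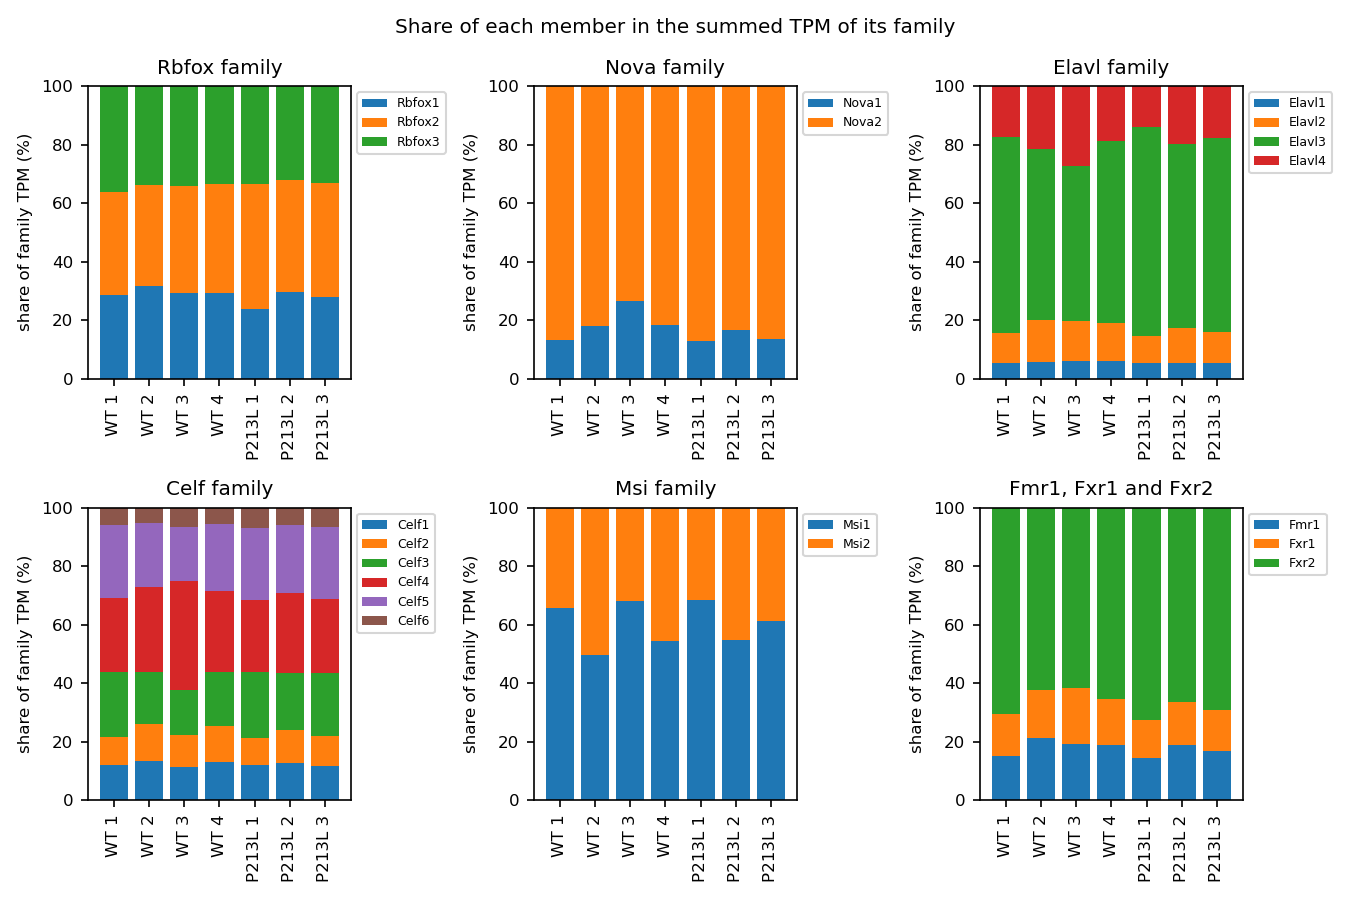
Share of each member in the summed TPM of its family (percent, bars stacked to 100%) in each of the 7 samples, for 6 families. The Rbfox2 segment is 34.8 to 37.1% in WT and 38.4 to 43.0% in P213L, while the Musashi and Nova bars differ within each group.

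Other RNA-binding regulators of neural tissue were taken as a fixed list of 59 genes, of which 55 were tested. None passed adjustment in limma, and 3 were at an unadjusted p under 0.05, all higher in P213L, beside 3.74% of all tested genes (2.36% higher). Without WT replicate 3 there were 5, of which 4 were higher and 1 lower, beside 8.69% of all tested genes. Mex3a, a KH-domain protein with a ubiquitin ligase domain, stood at 28.5, 24.9, 13.7 and 24.4 TPM in WT and at 39.8, 34.5 and 34.2 TPM in P213L. Its log2 fold change was 0.69 ± 0.24 (SE, adjusted p = 0.827 in limma) and 0.47 without WT replicate 3. Its relative Mex3d had 0.44 ± 0.16, Zfp36l1, which promotes decay of AU-rich messenger RNA, 0.28 ± 0.11, and Rbpms2 0.31 ± 0.15. For these 4 genes all P213L samples lay above all WT samples, and they were all such genes of the list with all 7 samples (4 of 55 beside 5.94% of all tested genes on that side). On the lower side were Zfr (-0.16 ± 0.13), Ptbp2, the neuronal polypyrimidine tract protein (-0.18 ± 0.16), and Paip1 (-0.13 ± 0.15), whose groups overlapped. Of the 55 genes 35 had a positive fold change, with a median of 0.099, and 25 did without WT replicate 3, with a median of -0.015.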

How the data were processed

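Poly(A) RNA was sequenced from the cortex of mice at postnatal day 7, in 4 WT and 3 P213L samples, with groups taken from the sample titles. The authors deposited TPM values per gene, per the file headers. Per the submitters' processing notes, HISAT2, HTSeq and the build mm10 were used. Tool versions, annotation and gene lengths are not stated in the sources at hand. The TPM of each library sums to 1e+06, so a change in very abundant genes moves all others.

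The 17582 genes averaging 1 TPM or more across all samples were tested with limma 3.58.1 (R 4.3.3) on log2(TPM + 0.5) with a mean-variance trend, two-sided, with Benjamini-Hochberg adjustment over all of them. The 35 genes found keep their symbols from the table. The fit was tested on simulated data. TPM keeps no depth, so counted units per library were estimated from the steps between low values. GC content and exon length came from the GENCODE vM21 annotation (mm10), matched by symbol for 49053 of 56941 rows. Sequences were read from the GENCODE vM21 transcripts, and stretches were chosen after the values were seen.

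All list members were named. From the other RNA-binding regulators, up to 4 genes with the smallest p in each direction were named, and from marker lists up to 2 with the highest mean. Some genes picked by these rules are not reported here. Gene lists, classes and marker lists were chosen with earlier results of these data known. The alternatives covered the pseudocount, the filter, scaling, the trend, sample weights, a replicate block and leaving out each sample. Removal of the GC and length trend, and 2 combined settings without WT replicate 3, were chosen after seeing the data. Marker lists for oligodendrocyte precursors, endothelium and meninges summed to 411.7 to 486.5, 263.5 to 372.9 and 66.4 to 121.0 TPM in WT and to 450.3 to 489.4, 287.2 to 306.9 and 114.8 to 176.0 TPM in P213L.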

Additional observations from a re-analysis of the deposited data

Results flagged for a closer look

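In 5 genes, WT replicate 3 lay far below the other 3 WT samples relative to the range of the group. On the log2(TPM + 0.5) scale its value was 6.44 for Rbfox1 (7.36 to 7.54 in the other WT), 6.77 for Rbfox2 (7.67 to 7.77), 6.66 for Rbfox3 (7.63 to 7.71), 5.86 for Celf1 (6.64 to 6.74) and 3.36 for Srrm4 (4.95 to 5.05). Chance marks about 1 in 20 groups of this size, and 34 genes were looked at, all in the same 4 libraries. The 3 P213L samples could not be looked at in this way because the group is too small.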

How the results depend on the processing

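The fold changes of Celf3, Celf6, Elavl3, Fxr2, Igf2bp2, Igf2bp3, Mbnl1, Msi1, Nova1, Nova2, Rbfox2 and Srrm4 kept their direction under every alternative that tested them (21, or 20 for Igf2bp2 and Igf2bp3, which fell under the 5 TPM filter); the other 21 genes turned at least once, in 97 of 691 values. No gene of the 33 passed an adjusted p of 0.05 except with sample weights (limma array weights). Values are log2 fold changes, and the cause of each turn was not tested.

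Turned values were Celf2 -0.076, Cpeb3 -0.054, Elavl1 -0.037, Khdrbs2 -0.067, Khdrbs3 -0.055, Pum2 -0.075 and Rbfox1 -0.048 with median-of-ratios scaling. Quantile normalization gave Celf2 -0.041, Cpeb3 -0.079, Elavl1 -0.052, Khdrbs2 -0.094 and Pum2 -0.023. Without mitochondrial genes they were Celf2 -0.018, Khdrbs2 -0.013 and Pum2 -0.016. With sample weights they were Celf1 -0.073, Celf2 -0.22, Cpeb3 -0.18, Elavl1 -0.068, Msi2 -0.17, Pum2 -0.18, Rbfox1 -0.17 and Rbfox3 -0.096. With the GC and length trend removed they were Celf2 -0.17, Cpeb3 -0.15, Elavl1 -0.047, Khdrbs2 -0.012, Khdrbs3 -0.0082, Msi2 -0.0098, Pum2 -0.029, Rbfox1 -0.092 and Rbfox3 -0.12. With that trend removed and WT replicate 3 left out they were Celf1 -0.011, Celf2 -0.083, Celf5 -0.0075, Cpeb3 -0.21, Fmr1 0.035, Fxr1 0.00091, Khdrbs1 0.025, Msi2 -0.13, Pum2 -0.031, Rbfox1 -0.24 and Rbfox3 -0.23. With median-of-ratios scaling and WT replicate 3 left out they were Celf1 -0.055, Celf2 -0.17, Cpeb3 -0.21, Elavl1 -0.070, Msi2 -0.17, Pum2 -0.11, Rbfox1 -0.22 and Rbfox3 -0.15.

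Leaving out each sample in turn gave ranges that cross 0 for Celf1 (-0.054 to 0.24), Celf2 (-0.17 to 0.11), Celf4 (-0.096 to 0.030), Cpeb1 (-0.22 to 0.0063), Cpeb2 (-0.14 to 0.10), Cpeb3 (-0.20 to 0.18), Cpeb4 (-0.25 to 0.10), Elavl1 (-0.068 to 0.12), Elavl2 (-0.25 to 0.051), Elavl4 (-0.32 to 0.060), Fmr1 (-0.17 to 0.048), Khdrbs1 (-0.071 to 0.032), Khdrbs2 (-0.034 to 0.058), Khdrbs3 (-0.016 to 0.099), Mbnl2 (-0.35 to 0.016), Msi2 (-0.17 to 0.34), Pum2 (-0.10 to 0.10), Rbfox1 (-0.22 to 0.16) and Rbfox3 (-0.14 to 0.21).

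Of all tested genes, 657 were at an unadjusted p under 0.05. The number was 1836 without a filter, 361 at a mean of at least 5 TPM, 6969 with sample weights, 1078 with the GC and length trend removed, 2488 with that and WT replicate 3 left out, 1523 with median-of-ratios scaling and WT replicate 3 left out, and 266 (without P213L replicate 1) to 1574 (without WT replicate 1) in leave-one-out fits. Sample weights put 3981 genes and 8 of the 33 past adjustment. The 1 regulator at an unadjusted p under 0.05 became 0 without mitochondrial genes or without the trend, 16 with sample weights, 2 and 4 in the GC settings, 3 in the last combined setting and 0 to 3 in leave-one-out fits. The 2 without overlap became 4, 5 and 4 in those 3 settings, beside 12.6%, 21% and 14% of all tested genes, and 2 to 9 in leave-one-out fits (9 without WT replicate 1, where 25% of all tested genes did not overlap). The 21 with a positive fold change became 13 with sample weights, 12 with the GC trend removed, 13 in the last combined setting and 13 to 30 in leave-one-out fits, 13 without P213L replicate 2 and 30 without P213L replicate 1. The share over all tested genes was 46.2% with the GC trend removed and 49.6% without WT replicate 3. It was not counted with sample weights, in the last combined setting or in the other leave-one-out fits.

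Both groups carry replicate numbers. The deviations of same-numbered samples correlated at 0.13, 0.17 and -0.10 for numbers 1 to 3. WT replicates 1 and 2 correlated best with their own number and WT replicate 3 did not. WT replicate 1 correlated almost as well with P213L replicate 3 (0.12). Replicate 2 less replicate 1 ran with GC content in both groups (rank correlation -0.62 in WT and -0.58 in P213L across 16614 genes). Whether the numbers pair the samples is not stated in the labels, and the main fit was planned without a replicate block. A fit with the replicate block gave 0 regulators at an unadjusted p under 0.05, and turned Cpeb2 to 0.030, Cpeb4 to 0.063 and Khdrbs2 to -0.0048. The replicate block with median-of-ratios scaling also gave 0, with Celf2 -0.021, Elavl1 -0.031, Khdrbs2 -0.10, Khdrbs3 -0.11 and Pum2 -0.032. Depth limits Mbnl3 and Igf2bp1, which lay under the filter.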
